A study of Homo sapiens with 4 samples.

Results

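To describe how far single m6A peaks reach along their transcripts in adenocarcinoma of the esophagogastric junction (AEG), the very wide peaks of a meRIP-seq experiment in OE-19 cells were examined. A peak was called wide when its end minus its start was 1500 bp or more. This rule took 764 of the 24607 peaks of m6A IP replicate 1 (3.1%) and 498 of the 19318 peaks of m6A IP replicate 2 (2.58%), which made 1262 of 43925 peaks in all. Overlapping wide peaks of both lists merged into 798 loci. OE-19 is an established human AEG cell line, and for all 4 samples the labels give only this line in standard medium, with no treatment or genetic change. They comprised 2 replicates of RNA pulled down with an antibody to m6A and 2 replicates of input RNA, and no peak list of the input was analysed here. Nothing in the labels states that the replicates came from separate cultures. Each list came from 1 library and holds no read numbers, so the depth behind a peak is unknown. The members were chosen by the width that the authors' peak caller gave, so all values are given as descriptions beside the same values for all peaks of the list, with no test.

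N6-methyladenosine (m6A) is placed on messenger RNA mostly by the METTL3-METTL14 complex, at adenosines within DRACH, a 5-base motif of any base but C, then A or G, then A, then C, then any base but G. GGAC is its most used core. In mammalian mRNA, m6A is known to gather in long internal exons and near stop codons, while exon junction complexes keep short coding exons largely unmethylated. In meRIP-seq, fragmented RNA is pulled down and sequenced, and a run of enriched coverage is called as 1 peak, so that several m6A sites closer together than the fragments can share a peak. The peak caller gave for each peak its limits, its summit, which is the position of highest enrichment, and a fold enrichment at the summit over its own background.

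To show sequence close to the strongest enrichment, the GGAC nearest the summit is printed for some of the wide peaks described in the results. They are AHNAK2, ANKRD11, RAI1 and AHDC1 from among the 8 widest, the exonic loci with the strongest fold enrichment in both lists, and those with the highest and lowest GGAC density. PLEC, EPPK1, MAFK and SLC26A1, also among the 8 widest, are described without sequence. Each line gives the sense strand of the gene in hg38, 5′ to 3′, with GGAC in capitals. In ANKRD11 and KCTD11 the base after the printed GGAC is G, so these stretches are not DRACH motifs. The last line shows AFG3L1P, whose wide peak held no GGAC, with its most frequent DRACH 5-mer in capitals.
AHNAK2, coding sequence, chr14:104954201-104954224, minus strand: tcaggaagggGGACtcagggcagc
ANKRD11, coding sequence, chr16:89279656-89279679, minus strand: ccggccccgaGGACgacactgagg
RAI1, coding sequence, chr17:17794957-17794980, plus strand: ccttgcagctGGACaagggcggca
AHDC1, coding sequence, chr1:27549115-27549138, minus strand: ctaacagcaaGGACtgcagcttcg
SLC25A29, 3′ UTR, chr14:100291393-100291416, minus strand: gaacagtatgGGACcccctcacca
KCTD11, coding sequence, chr17:7353142-7353165, plus strand: ggcccctcctGGACgcgctgcggg
NALF2, coding sequence, chrX:69505905-69505928, plus strand: tgctgggcatGGACcgccccgaca
ENSG00000280287, exon of a gene without a defined type, chr12:132553321-132553344, plus strand: ctttgacctgGGACtgctgagccc
OGFR, coding sequence, chr20:62813111-62813134, plus strand: gggttgaggaGGACacagaaggtc
PWWP2B, coding sequence, chr10:132405396-132405419, plus strand: gagagtcccgGGACcggccgtcct
ZNF189, 3′ UTR, chr9:101409784-101409807, plus strand: tgtgaatagtGGACaactgcccat
ZNF574, coding sequence, chr19:42079649-42079672, plus strand: cttccagtctGGACcagcaccttg
AFG3L1P, pseudogene exon, chr16:89995312-89995336, plus strand: tcagcagggaTGACTcagtactgcc

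Distances from the adenosine of this GGAC to the summit were taken in replicate 1, and in replicate 2 for NALF2. They were 2 nt in RAI1, 6 nt in AHNAK2, 8 nt in AHDC1 and 73 nt in ANKRD11, and in RAI1 the replicate 2 summit lay elsewhere in the exon. They were 7 nt in NALF2, 14 nt in KCTD11 and 38 nt in SLC25A29, and 12, 27 and 29 nt in PWWP2B, ENSG00000280287 and OGFR. The distance was 1 nt in ZNF574, where the peak held only 2 GGAC. As in RAI1, the replicate 2 summits of ZNF574 and ENSG00000280287 lay elsewhere. They were at chr19:42081099 and chr12:132552683, against chr19:42079660 and chr12:132553306 in replicate 1. In ZNF189 the nearest GGAC lay 1219 nt away. In MAFK and SLC26A1, whose sequence is not printed, it lay 97 and 423 nt away in replicate 1. Among all wide peaks with an exonic summit, a GGAC on the gene's strand lay within 50 nt of the summit in 61.4% of replicate 1 and 60.3% of replicate 2, against 49.3% and 51.3% of all exonic peaks.

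The wide peaks formed the upper end of a continuous range of widths. The narrowest members measured 1501 bp in replicate 1, in an intron of LMF1 (chr16:887042-888542), and 1500 bp in replicate 2, in ZCCHC14 (chr16:87411427-87412926). The widest peaks just outside the limit measured 1499 and 1498 bp. The median member was 1917 bp wide in replicate 1 (quartiles 1658 and 2372) and 1861 bp in replicate 2 (quartiles 1642 and 2283), where the median of all peaks was 288 and 298 bp. Widths of 3000 bp or more were reached by 72 and 36 peaks, and widths of 5000 bp or more by 8 and 6. Together the members held 15.4% of all peak bases in replicate 1 and 12.6% in replicate 2.

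**Figure D1:**
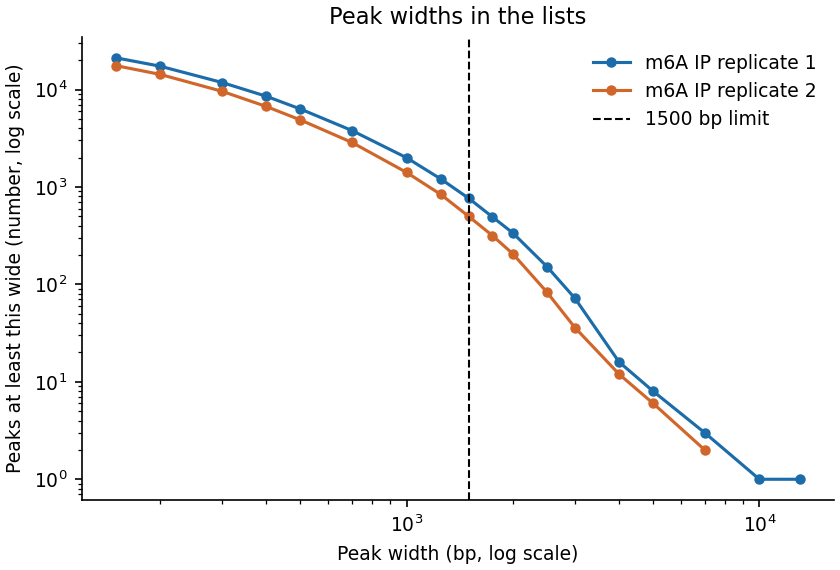
Number of peaks (y axis, log scale) at least as wide as the value on the x axis (bp, log scale) in each m6A IP list, with a dashed line at 1500 bp. The curves fall without a step at the limit, where 764 peaks of replicate 1 and 498 of replicate 2 remain, and replicate 1 ends at 13665 bp against 7070 bp in replicate 2.

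Fold enrichment was spread widely among the members. The fold enrichment of the members had a median of 8.57 in replicate 1, with a range of 1.89 to 26.1, and of 6.38 in replicate 2, with a range of 1.62 to 19.5. The medians of all peaks were 5.27 and 5.08. Within the members, width and fold enrichment had a Spearman correlation of 0.036 in replicate 1 and 0.050 in replicate 2, over 764 and 498 peaks that share a library and its calling. A fold enrichment under 2.5 was listed for 4 and 11 wide peaks. Enrichment and q come from the same calls as width, so these values only describe the members.

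Of the 8 widest loci, those of AHNAK2, PLEC and EPPK1 lay wholly inside 1 annotated exon in both lists. The peaks of ANKRD11, RAI1 and AHDC1 were at least 98.3% exonic, and those of MAFK and SLC26A1 ran over exons of a second gene. The widest of all covered 13665 bp of AHNAK2 in replicate 1 (chr14:104941466-104955130), within an annotated exon of 18159 nt that encodes the repeated central part of a large scaffold-like protein. Replicate 2 covered the same interval with 2 wide peaks of 6448 and 7003 bp, 149 bp apart, and these held 98.3% of the replicate 1 peak. The fold enrichment was 15.1 in replicate 1, and 8.95 and 12.7 in the replicate 2 peaks. In PLEC, which encodes the cytoskeletal linker plectin, the last exon of 7243 nt was 98.6% covered by a peak of 7139 bp in replicate 1 and 97.6% covered by a peak of 7070 bp in replicate 2, at a fold enrichment of only 2.24 and 2.74. EPPK1, for the intermediate filament linker epiplakin, had peaks of 6793 and 6778 bp that took 42.5% and 42.4% of an exon of 15975 nt. These cytoskeletal genes thus had limits that nearly coincided between the lists.

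RAI1, for a nuclear regulator of transcription, had peaks of 5598 and 5550 bp over 99.8% and 99.4% of its exon of 5581 nt (chr17:17792942-17798539 in replicate 1), and 5565 and 5548 of these bases were coding. AHDC1, an AT-hook gene, had peaks of 5014 and 4900 bp over nearly the whole of an exon of 4929 nt (chr1:27547175-27552188). Both genes therefore show peaks that begin and end close to the borders of the exon. In ANKRD11, which encodes an ankyrin repeat protein of the nucleus, the replicate 1 peak of 6557 bp filled 79.9% of an exon of 8172 nt, and replicate 2 divided it into 2 peaks, of which the wide one measured 4994 bp. The interval of 7309 bp in MAFK, which encodes a small Maf transcription factor, and that of 6961 bp in SLC26A1, a sulfate transporter gene, each ran over exons of a second gene and are described with the divided peaks.

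Nearly all wide peaks lay on annotated exons. The summit was exonic in 717 of 764 members of replicate 1 (93.8%, 95% Wilson interval 91.9% to 95.3%, all peaks 81.8%) and in 468 of 498 of replicate 2 (94.0%, 91.5% to 95.7%, all peaks 67.9%). Of the others, 37 and 22 were intronic (4.84% and 4.42%, all peaks 13% and 19.9%), 7 and 7 intergenic (0.916% and 1.41%, all 4.95% and 11.6%) and 3 and 1 on unplaced contigs (0.393% and 0.201%, all 0.224% and 0.569%). Peaks of 1000 to under 1500 bp had an exonic summit in 92.5% and 91.1%, so the high share was not particular to the members. The intervals here and after cover counting error only, and peaks of the same gene are not independent. The median exonic share of a wide peak, its bases in any annotated exon over all its bases, was 100% in both lists, with a lower quartile of 95.5% and 96.7%. The median over all peaks was also 100% in both lists. Every base was exonic in 386 of 764 and 305 of 498 members. Of all peaks, 57.7% and 54.6% lay inside 1 annotated exon, so at least these shares were fully exonic. At least 50% of the bases were exonic in 715 (93.6%, all peaks 80.1%) and 466 (93.6%, all peaks 67.2%). No base was exonic in 22 and 15, for which no share of all peaks is given.

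The exons below these summits were long. The median length of the summit exon was 2993 nt in replicate 1 and 3165 nt in replicate 2, against 1413 and 1848 nt for all exonic peaks. An exon of 1500 nt or more held 92.9% and 94.4% of the exonic members, against 48.3% and 57.6% of all exonic peaks, and the width rule by itself favours long exons wherever a peak stays within its exon. Counted over the exons that held a summit, the share with a wide peak was higher in longer exons. In replicate 1 it was 0.109% of 4599 exons under 500 nt, 0.870% of 5287 exons from 500 to under 1500 nt, 9.52% of 3234 exons up to 3000 nt, 10.8% of 1890 exons up to 5000 nt and 12.1% of 1141 longer ones (interval 10.3% to 14.1%). In replicate 2 the same classes gave 0.0629%, 0.669%, 7.21%, 8.32% and 10.5%. Most of the difference thus lay at 1500 nt, the length from which a single exon can hold a wide peak, and in each list the intervals of the last 2 classes overlapped.

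Width followed exon length only loosely among the members. The Spearman correlation of peak width and summit exon length was 0.211 over 717 peaks of replicate 1 and 0.222 over 468 of replicate 2, a description across peaks that share a library. The median wide peak covered 68.4% and 62.8% of its summit exon, against 28.5% and 23.6% for all exonic peaks. At least 90% of the exon was covered by 240 exonic members of replicate 1 (33.5%, all exonic peaks 9.45%) and by 123 of replicate 2 (26.3%, all 5.3%). The peak was wider than the exon in 143 (19.9%, all 11%) and 67 (14.3%, all 5.65%).

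**Figure D2:**
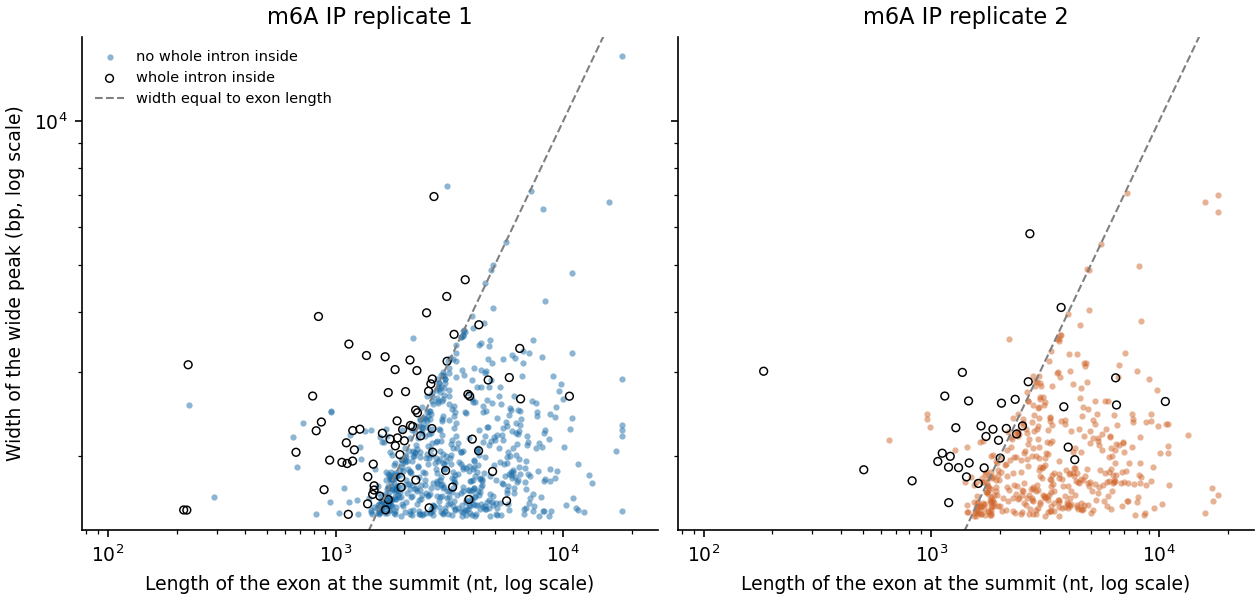
Width of each wide peak with an exonic summit (y axis, bp, log scale) against the length of the exon at its summit (x axis, nt, log scale), 717 peaks of replicate 1 and 468 of replicate 2, with open circles for peaks that hold a whole intron. Many points lie along the dashed line where width equals exon length, and many others spread to its right. The 143 and 67 peaks wider than their summit exon lie above it, and the Spearman correlations are 0.211 and 0.222.

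The whole peak lay inside 1 annotated exon in 369 members of replicate 1 (48.3%, 44.8% to 51.8%, all peaks 57.7%) and 298 of replicate 2 (59.8%, 55.5% to 64.1%, all peaks 54.6%). By place in the transcript, 52.4% and 50% of exonic members had their summit in the last exon, against 40.8% and 47.1% of all exonic peaks. The only exon of a gene held 68 members (9.48%) and 57 members (12.2%), against 3.74% and 4.32% of all. KCTD11, an intronless gene for an adaptor of ubiquitin ligases, is such a case, with peaks of 2002 and 1888 bp (chr17:7352192-7354193 in replicate 1) from the 5′ UTR over the whole coding sequence into the 3′ UTR. Its fold enrichment of 23.3 and 14.4 was among the highest of the loci wide in both lists. Internal exons held 32.8% and 31.2% (all 44% and 40.7%), and first exons held 5.30% and 6.62% (all 11.5% and 7.83%). The highest fold enrichment of a member in replicate 1 nevertheless lay in a first exon, that of NALF2, which encodes an auxiliary factor of the sodium leak channel, at 26.1, with 11.7 in replicate 2 and widths of 1700 and 1705 bp. SLC25A29, for a mitochondrial carrier, had 23.9 and 18.9 in its last exon, with widths of 1824 and 1726 bp. The KCTD11 peaks held exons of 2 genes and those of SLC25A29 exons of 3, on both strands. The lists carry no strand, so the gene named for them is uncertain.

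Some wide peaks ran across introns. A whole intron that no transcript of the gene covers with an exon lay inside 78 members of replicate 1 (10.2%, 8.26% to 12.6%, all peaks 2.37%) and 36 of replicate 2 (7.23%, 5.27% to 9.85%, all peaks 1.17%), and a wider interval has more room for one. When introns of any transcript were counted, including those retained in another, the shares were 20.03% and 15.3%. These introns were short, with a median total of 169 bp per peak in replicate 1 and 209.5 bp in replicate 2. The peaks kept a median exonic share of 90.9% and 89.7%. More than 1 intron lay in 21 and 10 members, for which no share of all peaks is given.

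HELZ2, for a helicase that acts as a transcriptional coactivator, held the most, with 5 introns of 531 bp in total inside a peak of 4667 bp in replicate 1 and 2 introns of 221 bp inside a peak of 4085 bp in replicate 2. SRMS, a non-receptor tyrosine kinase gene, had 4 introns of 942 bp inside peaks of 3981 and 2312 bp. CSNK1G2, for a casein kinase 1 gamma, had 4 introns of 339 bp inside 2261 bp in replicate 1 and 2 introns of 239 bp inside 1599 bp in replicate 2. In all 3 genes the peak thus ran on from the summit exon, of 3712, 2511 and 1190 nt in this order, over neighbouring introns. ZNF276, a zinc finger gene, was less exonic, with 4 introns of 1381 bp and an exonic share of 52.8% and 43.0%. The lists alone cannot tell apart fragments that still held the intron and coverage that was bridged between exons.

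Most members belonged to protein-coding genes, 683 in replicate 1 (89.4%, 87.0% to 91.4%, all peaks 75.1%) and 447 in replicate 2 (89.8%, 86.8% to 92.1%, all peaks 62.1%). Genes of long noncoding RNAs held 22 and 12 (2.88% and 2.41%, all 4.91% and 4.28%), pseudogenes 9 and 6 (1.18% and 1.20%, all 1.62% and 1.33%). The remaining exonic members were 2 and 2 in genes that still await experimental support and 1 and 1 in a gene annotated as an artifact. The exonic wide peaks fell on 668 genes in replicate 1 and 448 in replicate 2, of which 44 and 19 had more than 1, with at most 5 and 3. Exons of 2 or more genes lay inside 160 members (20.9%, all peaks 11.1%) and 97 members (19.5%, all 9.13%), and on both strands in 116 (15.2%, all 6.92%) and 70 (14.1%, all 5.9%). At the summit itself, exons of 2 or more genes overlapped in 59 (7.72%, all 7.15%) and 36 (7.23%, all 5.7%). Because the lists carry no strand, the gene named for such a peak is uncertain.

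The widest members outside protein-coding genes were seen in both lists. The pseudogene PKD1P2 had peaks of 3572 and 3508 bp over 98.8% and 97.0% of an exon of 3617 nt, with the limit that PKD1 and its other copies share most of this sequence, so that reads could be placed on either. The gene annotated as an artifact, ENSG00000277117, had peaks of 3523 and 3507 bp. LINC00205 had 1 peak of 3497 bp in replicate 1 and 2 wide peaks of 1760 and 1613 bp in replicate 2. The antisense and divergent transcripts GAS6-AS1 and BAIAP2-DT had peaks of 3317 and 3406 bp in replicate 1 against 2110 and 2079 bp in replicate 2.

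The intronic and intergenic members included some of the most enriched ones. The widest, in an intron of MCF2L (chr13:113015418-113019980), measured 4563 and 4438 bp with no exonic base, at a fold enrichment of 15.4 and 8.86. An intergenic peak at chr11:69382729-69385153 measured 2425 and 2100 bp and was enriched 15.8-fold and 18.9-fold. An intron of SLC9A3, which encodes a sodium-proton exchanger, held peaks of 2679 and 2002 bp at 19.3-fold and 15.0-fold. In an intron of TPPP, replicate 1 had wide peaks of 2342 bp at 25.3-fold and 1846 bp at 10.5-fold, and replicate 2 had 1 peak of 3402 bp at 12.3-fold that overlapped both. There, 20.2% of the 30-base words of the stronger replicate 1 peak occurred more than once in it, most often 48 bp apart. A peak on the unplaced contig KI270734.1 measured 3893 and 2275 bp, and no annotation was used there. By position, 34.0% and 33.9% of all members lay within 5 Mb of a chromosome end, against 22.2% and 18.4% of all peaks. Chromosome 19 held the most, with 77 and 58, which were 10.1% and 11.6% of the members where the chromosome held 7.91% and 6.07% of all peaks. On chromosome 22, 4.62% and 5.19% of the peaks were wide, against 3.95% and 4.95% on chromosome 19.

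Within protein-coding transcripts, the wide peaks lay mainly on coding sequence. On the transcript with the longest coding sequence, 69.9% of their bases in replicate 1 and 73.1% in replicate 2 were coding, 26.7% and 23.2% were 3′ UTR, and 3.43% and 3.68% were 5′ UTR. Over all exonic peaks the coding portion was 61.3% and 62.9%, and over the same whole transcripts it was 51.8% and 51.6%. The stop codon lay inside 399 of 683 protein-coding members in replicate 1 (58.4%, all 23.2%) and 251 of 447 in replicate 2 (56.2%, all 27.3%). The start codon lay inside 24.5% and 26.4% (all 9.87% and 7.96%), and both codons, and so the whole span from start to stop, inside 99 members (14.5%, all 1.09%) and 68 members (15.2%, all 1.16%). An interval this long reaches more codons than a short one wherever it lies, so these counts are not comparable in kind with those of all peaks. Coding bases alone were seen in 172 and 116 members (25.2% and 26.0%, all 39.8% and 38.5%), and 3′ UTR bases alone in 30 and 22 (4.39% and 4.92%, all 15.2% and 17.1%).

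The GGAC core was denser inside the wide peaks than in the rest of the same genes. Counted on the gene's strand in the exonic sequence of the members, it occurred 6.06 times per kb in replicate 1 and 6.41 times in replicate 2, against 3.45 and 3.36 per kb in the exons of these genes outside every peak. All exonic peaks gave 5.91 and 6.09 per kb inside and 3.20 and 3.11 outside, so the density inside hardly depended on width. A wide peak held a median of 11 GGAC in replicate 1 (range 0 to 159) and 12 in replicate 2 (range 0 to 80). Neighbouring GGAC were a median of 96 and 93 nt apart, whereas the largest such distance per peak had a median of 443 and 437.5 nt. These distances were taken on the genome, with any introns included, and leave out the stretches at the peak ends. With genes that had at least 500 exonic bases outside peaks, 515 of 658 members (78.3%, all 65.2%) and 354 of 422 (83.9%, all 70.2%) were denser in GGAC than the rest of their own gene. For GTCC, the reverse complement of GGAC, which has the same G and C content but not the same single bases, this held for 62.9% and 65.4% (all 47.9% and 48.3%).

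The full DRACH motif behaved otherwise. It occurred 17.3 times per kb inside the wide peaks of both lists, and 17.2 times outside in both. Against the rest of their own gene, 359 of 658 members of replicate 1 (54.6%, all 59.6%) and 234 of 422 of replicate 2 (55.5%, all 66.9%) were denser in DRACH. Inside the peaks of replicate 1 its density was 19.8 per kb under 300 bp, 21.3 from 300 to under 500 bp, 20.3 to under 1000 bp, 18.9 to under 1500 bp and 17.3 in the members. In replicate 2 the same classes gave 22.4, 22.5, 21.0, 18.9 and 17.3 per kb, so the members had the lowest value in both lists while the order of the narrower classes differed. The members were also richer in G and C, with 60.2% and 60.9% of exonic bases against 56.8% and 55.9% in all exonic peaks and 49.6% and 49.2% outside. GTCC was 1.32 and 1.36 times as dense inside as outside, where the ratio of GGAC was 1.75 and 1.91.

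**Figure D3:**
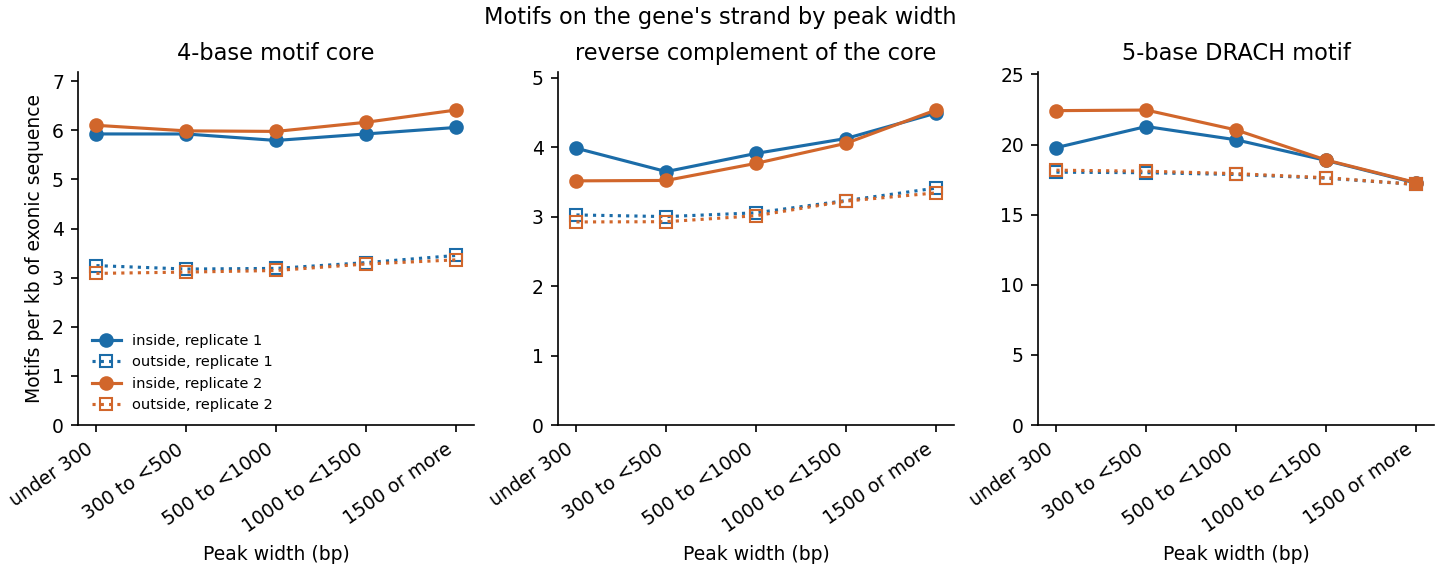
Density on the gene's strand, per kb of exonic sequence (y axes, from 0), of the 4-base core GGAC, of its reverse complement GTCC and of the 5-base DRACH motif by peak width (x axis, bp), with filled circles for peaks and open squares for the exons of those genes outside all peaks. The core stays near 6 per kb in every width class, while DRACH inside the peaks comes down to its level outside, 17.3 against 17.2 per kb in the widest class of replicate 1.

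The DRACH 5-mers differed. The 3 with GGAC were the most raised of all 18, with GGACC at 1.97 and 2.07 times its density outside, GGACA at 1.59 and 1.77, and GGACT at 1.51 and 1.62. Together these 3 gave ratios of 1.70 and 1.83, and the other 15 together 0.863 and 0.842. Of these 15, 5 and 4 were above 1, led by AGACC at 1.34 and 1.34, TGACC at 1.21 and 1.22, and GAACC at 1.19 and 1.20. The lowest was TAACT, at 0.380 and 0.309. Base composition moved in the same direction. Among the 12 orders of A, C, G and G, GGAC ranked 7 in both lists, and all 6 with a higher ratio contained CG, led by CGAG at 1.99 and 2.21. Among the 6 orders without CG it ranked highest, followed by GAGC at 1.53 and 1.61. The part of base composition in these ratios was not tested.

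Repeats were seen in some of the members with the most GGAC. The highest densities among loci wide in both lists were 18.1 and 15.9 per kb in ENSG00000280287 on chromosome 12, 13.9 and 13.95 in OGFR, the opioid growth factor receptor gene, and 13.8 and 13.8 in PWWP2B, a chromatin protein gene. In OGFR, 17.99% of the 30-base words of the peak were repeated, most often 60 bp apart. AHNAK2 held 159 GGAC in its replicate 1 peak, 11.6 per kb against 5.62 in its exons outside peaks. Here 37.9% of the words were repeated, mostly at 495 bp, and 27 of the distances between neighbouring GGAC were exactly 69 nt.

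At the other end, AFG3L1P, a pseudogene of a mitochondrial protease family, had peaks of 1640 and 1659 bp with 0 GGAC but 40.3 and 39.8 DRACH per kb, the most common of which, TGACT, made up 53 of the 66 in replicate 2. The words of its peak were repeated to 43.0% and 42.5%. The zinc finger genes ZNF189 and ZNF574 held 2 GGAC in replicate 1 and 0 and 2 in replicate 2, at a fold enrichment of 7.14 and 18.7 in replicate 1. In ZNF574 this was 0.684 per kb against 7.11 in the exons outside peaks. No GGAC lay in 1 exonic member of replicate 1 and 2 of replicate 2. A wider interval has more room for GGAC, and no share of all peaks is given beside these counts, so nothing is read from them. Repeats at 10% or more of the words were seen in 16 and 12 members, and 687 and 446 had none. Repeated words were counted in the wide peaks only.

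Next, the 2 lists were compared over the same intervals. Of the 798 loci, 458 were wide in both lists (57.4%), which was 60.0% of the 763 loci of replicate 1 and 92.9% of the 493 of replicate 2. A further 305 were wide in replicate 1 only, and 35 in replicate 2 only. Every wide peak of replicate 1 was overlapped by a peak of replicate 2 (764 of 764, all peaks 56.7%), and 496 of 498 in the other direction (99.6%, all peaks 74.6%). The exceptions lay in introns of SLC25A26 and SHC3. Among peaks of 1000 to under 1500 bp, 99.8% of replicate 1 and 98.5% of replicate 2 were overlapped, so this was not particular to the members. A longer interval also has more room for an overlap. A peak that was itself wide overlapped 459 members of replicate 1 (60.1%, all peaks 2.15%) and 463 of replicate 2 (93.0%, all peaks 5.51%). In 537 and 357 members the strongest overlapping peak of the other list had its summit within 100 bp, with a median distance of 35 bp in both. No value for all peaks is given beside these distances. At 452 loci with exactly 1 wide peak in each list, replicate 1 was the wider in 85.8%, with median widths of 2156 and 1894 bp, and had the higher fold enrichment in 86.3%, by a median of 0.42 on the log2 scale. Over these loci, which share their cells and protocol, the Spearman correlation was 0.779 for width and 0.746 for fold enrichment.

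Division by the other list was seen more often in replicate 1 peaks, by a margin that depended on the pieces counted. Of its 764 wide peaks, 254 were overlapped by 2 or more peaks of replicate 2 (33.2%, 29.997% to 36.7%, all peaks 2.82%), namely 211 by 2, 40 by 3, 2 by 4 and 1 by 6. Of the 498 wide peaks of replicate 2, 36 were divided by replicate 1 (7.23%, 5.27% to 9.85%, all peaks 1.5%), 33 into 2 and 3 into 3. A wider interval has more room for pieces, and peaks of 1000 to under 1500 bp were divided in 17.5% and 6.92%. When only pieces with a fold enrichment of 5 or more counted, the share was 10.5% in replicate 1 and 6.63% in replicate 2. When pieces within 150 bp of each other counted as 1, the share was 31.0% in replicate 1 and 3.41% in replicate 2. Among the members wide in replicate 1 only, 184 were divided into narrower peaks and 121 had 1 narrower counterpart, with a median width of 1180 bp for the widest counterpart.

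The gaps between the pieces were short. For divided peaks of replicate 1 the median gap was 219 bp, and for those of replicate 2 it was 148.5 bp. A gap under 300 bp was seen in 194 of 254 and 34 of 36 divided peaks. The smallest gap between any neighbouring peaks was 146 bp in the replicate 2 list and 115 bp in the replicate 1 list. Inside the 234 divided exonic peaks of replicate 1, GGAC occurred 6.23 times per kb in the pieces and 3.94 times in the gaps, and in the 31 of replicate 2, 6.18 and 3.57 times. The gaps were 91.5% and 91.9% exonic, so most did not fall on introns. Peaks with a whole intron were divided in 46.2% and 11.1%, against 31.0% and 6.25% of exonic peaks without one.

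**Figure D4:**
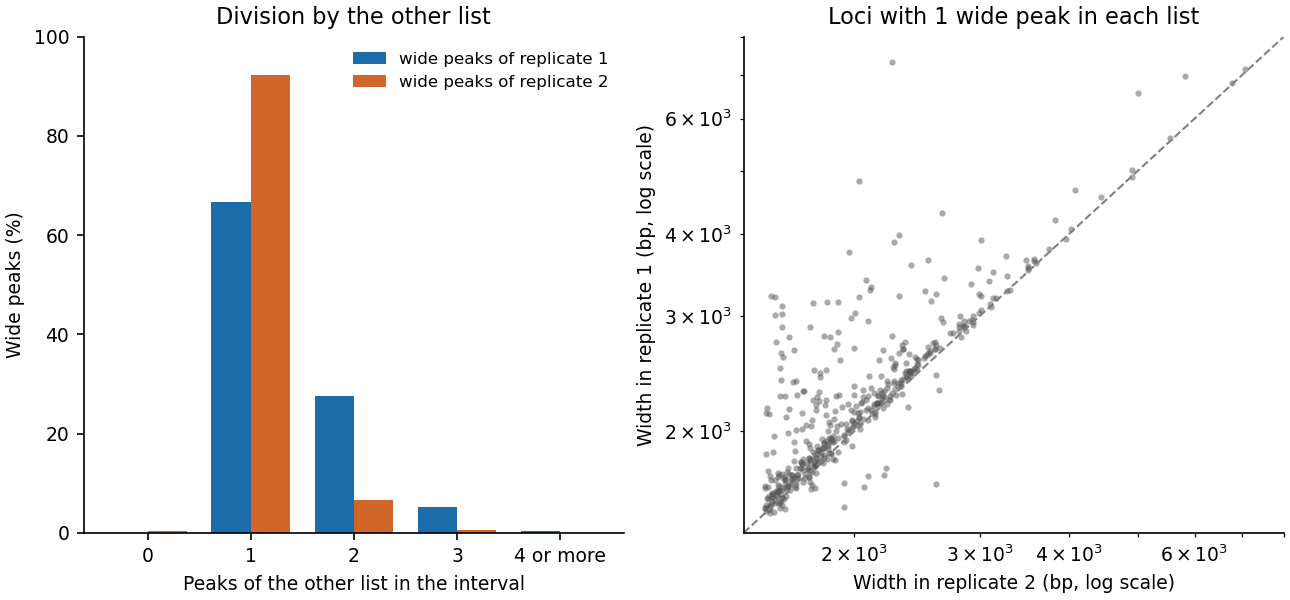
Left, percent of wide peaks (y axis, from 0) by the number of peaks of the other list inside them (x axis), for wide peaks of replicate 1 (blue) and replicate 2 (orange); right, width in replicate 1 against width in replicate 2 (bp, log scales) at 452 loci with 1 wide peak in each list, with a dashed line of equality. Division into 2 or more pieces is seen for 33.2% of replicate 1 and 7.23% of replicate 2 peaks, and 85.8% of the points lie above the line.

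The most divided peak was that of MAFK in replicate 1 (chr7:1539900-1547208), which replicate 2 replaced with 6 peaks of 1201, 144, 2259, 504, 144 and 897 bp that covered 70.4% of it. The summit of the first lay in an exon of MAFK alone and that of the second where exons of MAFK and TMEM184A overlap on opposite strands. The summits of the last 4 lay in the last exon of TMEM184A alone. The fold enrichment of the pieces ranged from 3.18 to 10.1. In SLC26A1, the replicate 1 peak (chr4:987063-994023) reached over 4 introns of 1923 bp and over exons of IDUA, the lysosomal iduronidase gene on the other strand. Replicate 2 gave it 1 peak of 5822 bp, which held the same introns, and 2 of 196 and 145 bp. The peak of 196 bp had its summit in an exon of IDUA, and that of 145 bp in an intron of IDUA. The replicate 1 intervals of MAFK and SLC26A1 thus joined exons of genes on opposite strands.

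SAP30BP had a peak of 1546 bp at a fold enrichment of 11.4 in replicate 1, and 4 peaks of 159 to 358 bp at 3.10 to 4.92 in replicate 2. In SLC5A3, the inositol transporter gene, a peak of 1555 bp at 16.5-fold stood against 3 peaks of 286 to 515 bp, of which the strongest reached 12.2-fold. ZNF629, with 2917 bp at 20.8-fold, had 3 pieces of 316 to 853 bp. These 3 peaks held 12, 2 and 12 GGAC. The mucin gene MUC5B was the opposite case, weak and repetitive, with 4815 bp at 1.89-fold in replicate 1, repeats at 49.8% of words, and 4 pieces at 1.45-fold to 1.90-fold in replicate 2.

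**Figure D5:**
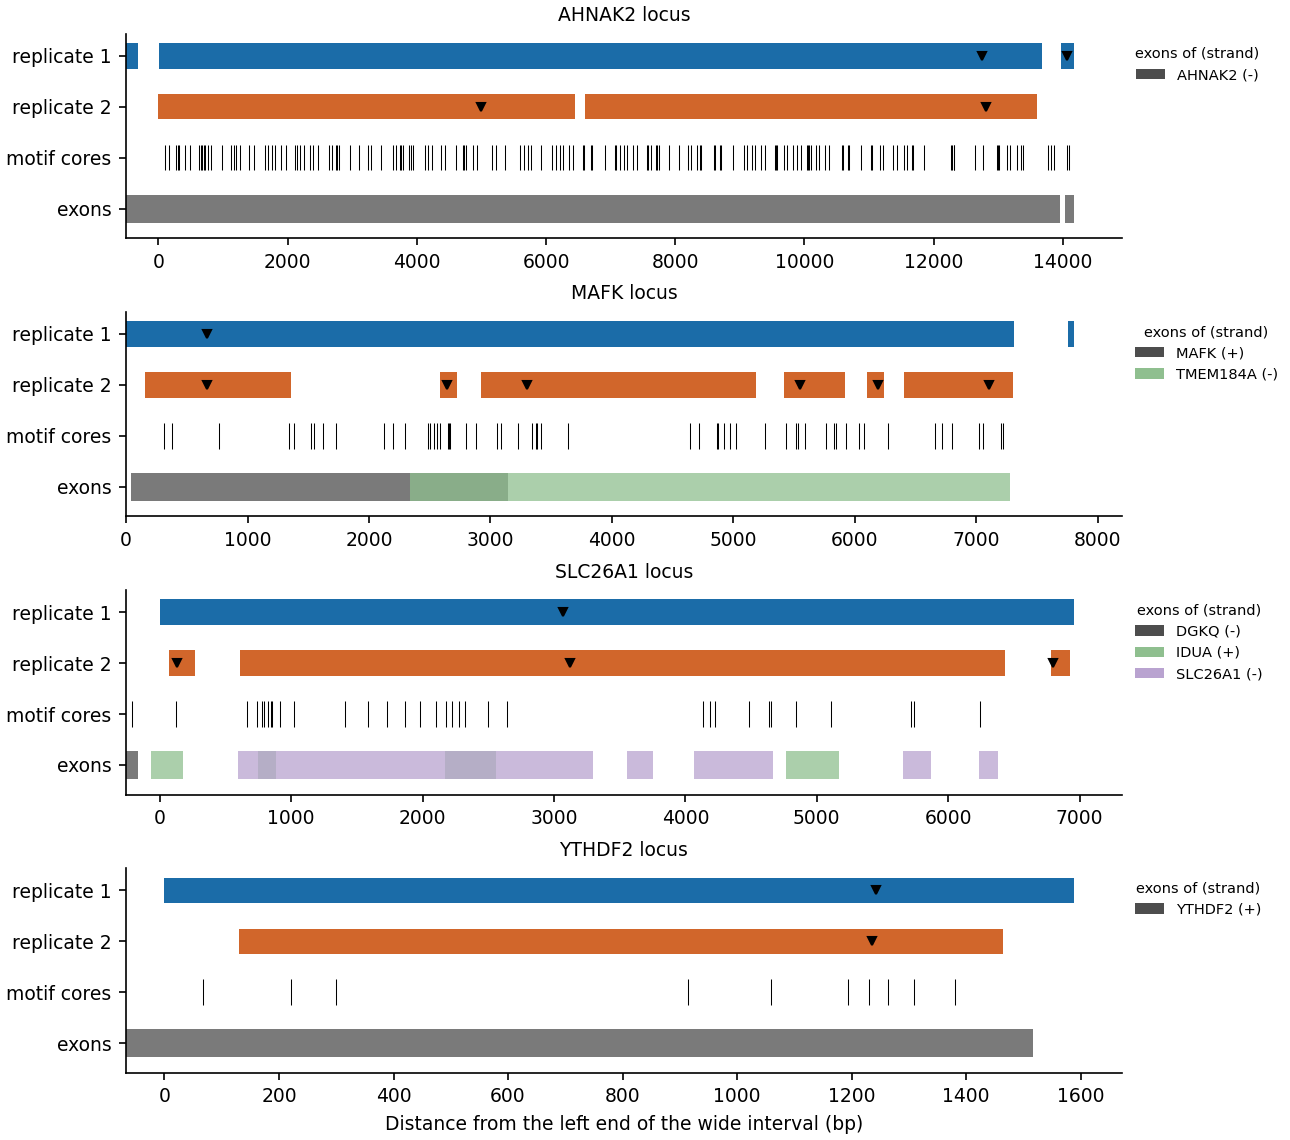
Peaks of replicate 1 (blue) and replicate 2 (orange) with their summits (triangles), GGAC cores on the strand of the named gene and exons at 4 loci, against the distance from the left end of the wide interval (bp). AHNAK2 is 1 peak of 13665 bp or 2 peaks 149 bp apart within 1 exon, MAFK falls into 6 pieces over exons of 2 genes on opposite strands, SLC26A1 spans introns and IDUA exons, and YTHDF2 is matched by a peak of 1334 bp.

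Wide peaks were then counted in gene lists. Of all genes with an exonic peak, 668 of 9222 had a wide one in replicate 1 (7.24%) and 448 of 7339 in replicate 2 (6.10%). Among chromatin regulators the counts were 14 of 42 and 13 of 41, and among large scaffold and cytoskeletal genes 7 of 18 and 6 of 16. Exon lengths differ between these lists and were not matched, so nothing is read from the difference. C2H2 zinc finger genes, whose finger arrays mostly lie in a single last exon, had 49 of 397 and 38 of 365. ZNF646 had the widest, with 4205 bp in replicate 1 and 3829 bp in replicate 2 within an exon of 8295 nt. ZNF276 had 3912 and 3007 bp. ZNF865, with 3666 and 3571 bp, was covered over 97.6% and 97.0% of an exon of 3677 nt.

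Of the chromatin regulator list, the 4 genes with the widest peaks had their summits in exons of 2183 nt or more. ARID5B, a DNA-binding subunit of a histone demethylase complex, had peaks of 2664 and 2195 bp in its last exon. KDM6B, the H3K27 demethylase gene, had 2306 and 1699 bp over 95.6% and 77.8% of an internal exon of 2183 nt, and the replicate 1 peak also held an intron of 93 bp. EP300, for a histone acetyltransferase, had 2285 and 2129 bp, and ASXL2, for a Polycomb-associated protein, 2281 and 2332 bp, each in the last exon. Among transcription coregulators, 4 of 19 genes in replicate 1 and 2 of 18 in replicate 2 had a wide peak. BCL9L, a coactivator of beta-catenin, and SPEN, a corepressor, were wide in both, with 2463 and 2397 bp and with 1647 and 1650 bp. NRIP1, a corepressor of nuclear receptors, had 2606 bp in replicate 1, where replicate 2 had 3 narrower pieces, and MGA had 1600 bp in replicate 1.

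Exonic peaks were found on 11 of 12 m6A regulator genes in replicate 1, and the 3 with a wide one were the cytoplasmic readers YTHDF1, YTHDF2 and YTHDF3. In replicate 2 the count was 10, and YTHDF3 alone was wide. The peaks of replicate 1 measured 1555, 1589 and 1593 bp and covered 98.2%, 95.8% and 94.7% of coding exons of 1521, 1584 and 1599 nt. Replicate 2 had 1 peak at each, of 1398, 1334 and 1607 bp. Inside the replicate 1 peaks, GGAC occurred 7.37, 6.59 and 6.61 times per kb, against 2.67, 1.502 and 1.15 in the exons of these genes outside peaks. The fold enrichment was 4.30, 14.3 and 7.20 in replicate 1, and 3.52, 8.87 and 4.44 in replicate 2.

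The 8 G1-S genes that the study followed had no wide peak, with 4 of them carrying a narrower exonic peak in each list, and neither had the 3 nuclear long noncoding RNAs. Of 8 epithelial markers, 3 had an exonic peak in each list and CLDN4, a tight junction claudin, a wide one, of 1582 and 1586 bp. Of 4 markers of other cells, 1 had a narrow exonic peak in replicate 1 and 0 in replicate 2. Of all 62700 annotated genes, 9222 in replicate 1 and 7339 in replicate 2 had an exonic peak. The marker lists are short and a peak list does not measure expression, so the cell identity cannot be checked from these counts.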

How the data were processed

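The study treated total RNA with DNase, fragmented it and pulled it down with an m6A antibody, whereas the labels speak of UV-crosslinked, lysed cells and a strand-keeping library kit. The methods name TopHat2 and the submitters' processing notes fastp, HISAT2 and MACS2, with hg38 and no versions. The authors called peaks for each sample by itself with MACS2 at default settings, and whether the input served as control is not given in the sources used here. The authors deposited peak limits, a summit offset, the fold enrichment (a ratio to the caller's background), −log10 of p and q, and a score derived from −log10 q, of which the score and p were not used further. Peaks carry no strand and no read numbers, so depth is unknown and precision is limited by how many peaks there are.

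Widths are end minus start of the lists, and coordinates are given 1-based. Each summit was assigned to a gene of GENCODE version 44 whose exon held it, protein-coding genes first, then the gene with the most exonic bases in the peak. Contigs had no annotation. Motifs were counted on the gene's strand in its merged exons inside the peak and in its exons outside every peak of either list. Peaks of the lists were compared with at least 1 bp of overlap. Shares carry 95% Wilson intervals, and no p-value was computed.

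The members, gene lists and measures were chosen with earlier results of these data known. Peaks were named by rule: the 8 widest, the 6 strongest loci wide in both lists, the 5 with the most introns, the 6 with the most pieces, the 5 widest of other gene types, the 4 widest outside exons, the 3 with the most and the 3 with the fewest GGAC per kb, up to 4 per gene list, and those next to the limit. SLC25A26 and SHC3 were named after their values were seen. Interval and motif counting was tested on simulated data. Alternatives covered the width limit, the q and fold enrichment thresholds, exon, intron and gene definitions, strand, and overlap rules. The scripts ran under Python 3.11.15 with pysam 0.24.0, pandas 2.3.3 and numpy 2.4.6, with scipy 1.17.1 for intervals and matplotlib 3.10.9 for figures.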

Additional observations from a re-analysis of the deposited data

How the results depend on the processing

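Of 88 values recomputed under another choice, 50 stayed near the main value and 38 moved. Near meant within 1.5 times a count, within the interval of a share, or within the spread of the lists of a median or density. Both lists had a median exonic share of 100% and nearly the same DRACH density, so small changes there counted as moved. Reversal of a direction was not assessed. Values are given for replicate 1, then replicate 2. With a width of 1000 bp or more, 1993 and 1408 peaks and 2092 loci were wide, 53.7% of the replicate 1 peaks lay inside 1 exon, 7.43% and 5.04% held a whole intron, DRACH occurred 18.03 and 18.1 times per kb, and 23.5% of replicate 1 was divided. With 2000 bp or more, 337 and 206 peaks and 347 loci remained, 42.7% and 53.4% lay inside 1 exon, 15.4% and 11.2% held an intron, DRACH occurred 16.6 and 16.7 times per kb, 36.8% of replicate 1 was divided, and its median exonic share was 99.3%. The exonic share with protein-coding exons alone was 99.5% in replicate 1. Introns of any transcript gave 20.03% and 15.3%. Counting either strand gave 10.6 and 10.95 GGAC and 30.8 and 30.3 DRACH per kb, and leaving out peaks with exons on both strands gave 17.4 and 17.4 DRACH. An overlap of 50% of both peaks was met by 86.6% and 95.8%, and summits of replicate 1 fell inside 97.2% of the replicate 2 members. Division of replicate 1 came to 28.9% with pieces at q of 1e-05 or less and to 10.5% with pieces at a fold enrichment of 5 or more, and that of replicate 2 to 3.41% with pieces within 150 bp joined. The causes were not tested. Without replicate 1 or 2, 498 and 764 loci were left. Every member passed q of 1e-05, and 664 and 370 passed a fold enrichment of 5. In alternatives added after the data were seen, neighbours under 146 bp apart were joined, which gave 851 wide peaks in replicate 1 and left 498 in replicate 2, and division came to 39.4% and 4.22%. GGAC without AHNAK2 was 6.01 and 6.34 per kb, and without peaks of repeated words 5.99 and 6.34. No paired analysis was possible because no result came from a test between groups. The unknown depth limits what the shorter list can show.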
